A study of Arabidopsis thaliana with 24 samples.

Results

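Phased-siRNA PPR genes of chromosome 1 were followed across the mutants of this small RNA study. The 10 genes were taken by name from the authors' deposited table of differential small RNA, which holds 14888 loci. A gene without a row there was not taken, so each of the 10 is listed in at least 1 line by choice. They are 9 protein-coding genes and the pseudogene AT1G62860.

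The study sequenced small RNA of Arabidopsis thaliana inflorescences, from plants kept for 10 days on plates and a further 4 weeks in soil. The labels give 24 libraries in 8 genotypes of 3. The mutants are ski2-5, urt1-1, rrp4-2 and heso1-4 alone, the double mutant heso1-4/urt1-1, a triple mutant that adds rrp4-2 to this pair (rrp4-2/urt1-1/heso1-4), and a triple mutant of rrp4-2, urt1-1 and dcl2CRISPR. The wild type is Col-0. The authors' deposited table instead gives comparisons for 13 mutant lines, with no values per library, so replicate values and depth are not known here. It names no reference; the fold changes are read here as mutant over Col-0, the wild type of the labels. By name, 5 of the 13 match labels: ski2-5, urt1-1, rrp4-2, heso1-4/urt1-1 and, of the triple mutants, rrp4-2/urt1-1/heso1-4. Which of the lines rrp4urt1dcl2.B9 and rrp4urt1dcl2het is the labelled dcl2CRISPR group, whether GKheso1 is heso1-4, and whether the ending het means a heterozygous dcl2 mutation were not settled. Further alleles of single genes, by their names, are heso1.3, urt1.2 and ski2.2. The lines ski2urt1dcl2.107 and ski2urt1dcl2.123 carry names of ski2, urt1 and dcl2 mutations; no labelled library has these 5 names. Nothing in the labels says whether the libraries of a genotype came from separate plants, so the p-values measure the spread between these libraries. Of 7 floral organ identity genes checked for the tissue, 3 (AP3, PI and SEP1) are listed in some line, and since the values are of small RNA they do not test the label further.

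Pentatricopeptide repeat (PPR) proteins bind organelle RNA and help to cut, edit or stabilise it. The genes studied here belong to the Rf-like subgroup, named for restorers of fertility, whose mRNAs are cut by miR161, miR400 and TAS-derived siRNAs. A cut mRNA can be copied by the RNA polymerase RDR6 with SGS3 and diced by DCL4 or DCL2 into a phased row of secondary siRNAs. SKI2 is the helicase that feeds mRNA to the cytoplasmic exosome, RRP4 is a core subunit of the exosome, and URT1 and HESO1 add uridines to RNA 3' ends. Read lengths are not in the values used, so neither siRNA size nor phase was measured.

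The microRNAs and their best matches in the members are shown because they are the known entry points of phased siRNAs in this family. Sequences were read from the RefSeq copy of the TAIR10.1 genome. In the mature microRNAs, capitals mark the seed (bases 2 to 8); miR161.1 and miR161.2 come from overlapping stretches of the MIR161 precursor (AT1G48267) and have different seeds.
miR161.1: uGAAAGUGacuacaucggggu
miR161.2: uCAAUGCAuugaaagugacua
miR400: uAUGAGAGuauuauaagucac

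The miR161 sites of a member lie within a window of 30 bases. Its first 21 bases face miR161.1 and its last 21 bases face miR161.2. The windows below are the sense strand of each gene, and capitals mark bases that cannot form a Watson-Crick pair with the microRNA, G:U pairs included. The 10 members hold 7 different windows.
AT1G62590 and AT1G63330: acccTAatTtagtcacGttcaatgcattga
AT1G62670: acccTgatgtaTtcactttcaGCgcattga
AT1G62860: acccTgatgtTgtTactttcaGCgcattga
AT1G62910, AT1G62930 and AT1G63130: aTccAAatgtagtcactttcaGCgcattga
AT1G63080: aTccAAatgtagtcactttcaaCTcattga
AT1G63150: accccAatgtTgtTactttcaatgcattga
AT1G63400: aTccAAatgtagtcactttcaaCgcattga

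The match to miR161.2 was closest in AT1G62590, AT1G63330 and AT1G63400, with 1 mismatch each. AT1G62910, AT1G62930, AT1G63080, AT1G63130 and AT1G63150 had 2, AT1G62670 had 3, and the pseudogene AT1G62860 had 4. For miR161.1 the best member was AT1G62670, with 2 mismatches, while AT1G62590 and AT1G63330 had 4 and the remaining members 3. The windows of the 9 coding members lie in coding exons, for example that of AT1G62910 at chr1:23300033-23300062 on the plus strand (TAIR10.1). The window of AT1G62860 lies in an exon of its noncoding transcript.

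The miR400 sites lie downstream in each member. The sense strand of 3 of them shows the range, again with mismatches in capitals.
AT1G62590: gtTacAtataatactctcata
AT1G62930 and AT1G63130: gtgacttaCaatactctTata
AT1G62860: AtTacttTAaatactctcata

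AT1G62590, AT1G62670, AT1G62930 and AT1G63130 had 2 mismatches to miR400, AT1G62860 and AT1G63150 had 4, and the other members 3. Among 37895 genes of the nuclear chromosomes, a sense-strand match to miR161.2 with at most 2 mismatches was found in 12 genes, or 0.0317%, of which 8 are members. A further 2 are among 19 other Rf-like PPR genes that were checked. With at most 3 mismatches to miR400 there were 25 genes, or 0.066%, of which 8 are members and 9 are other Rf-like PPR genes. AT1G06580 and AT1G62720 of the other Rf-like genes, with 0 and 1 mismatches, matched miR400 more closely than any member. The sites are thus not particular to the cluster. These are ungapped matches over the annotated gene and show no cleavage.

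The members lie in 332.6 kb of chromosome 1, on both strands. The first is AT1G62590 (TAIR10.1, 23176930 to 23179248), followed by AT1G62670 or RPF2, a factor for the 5' ends of mitochondrial mRNAs (23204256 to 23206822), and AT1G62860 (23274487 to 23277075). AT1G62910, also called RFL9, lies at 23298948 to 23301141 and AT1G62930 or RPF3, a factor for the 5' end of a mitochondrial cytochrome maturation mRNA, at 23306534 to 23308686. AT1G63080 lies at 23387574 to 23390838, AT1G63130 (RPF6, a further RNA processing factor) at 23412518 to 23415155 and AT1G63150 at 23419294 to 23421714. AT1G63330 (23489805 to 23491981) and AT1G63400 (23507178 to 23509484) end the row.

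The level of a member is known here only as the authors' deposited mean normalised count over libraries, which is the same in every line and was divided by gene length for this comparison. AT1G62910 stood highest at 1280 normalised counts per kb. AT1G63400 had 1107, AT1G62930 had 1082 and AT1G63130 had 1052 normalised counts per kb. AT1G63080 and AT1G63150 lay below them at 795 and 725 normalised counts per kb. AT1G63330, AT1G62860, AT1G62590 and AT1G62670 were lowest, at 491, 448, 445 and 353 normalised counts per kb. The order has no error attached, since the spread over libraries is not given. Of the 3 members with 1 mismatch to miR161.2, AT1G63400 stood second, and AT1G63330 and AT1G62590 were among the lowest 4. AT1G63330 and AT1G62590 have the same window and are near copies, so their levels cannot be taken as independent. A link between match and level was not tested.

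**Figure D1:**
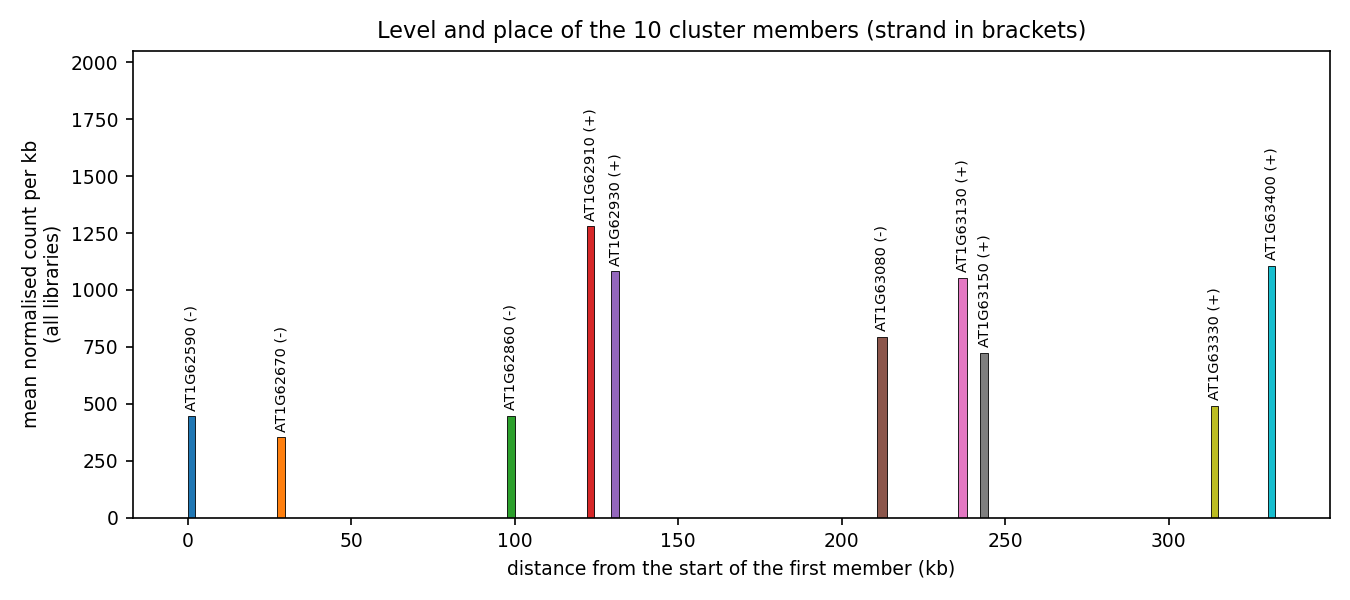
Mean normalised count per kb (y axis, all libraries together) of the 10 members against their distance in kb from the start of AT1G62590 (x axis); each bar is 1 gene as wide as its annotated span, with its strand in brackets. AT1G62910 is highest at 1280 and AT1G62670 lowest at 353, and the members are spread over 332.6 kb.

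The coding members are close copies of each other, and the pseudogene is not. Coding sequences of the 9 coding members were 82.7% to 99.0% identical over 36 pairs (median 86.8%). The transcript of AT1G62860 was 64.7% to 66.7% identical to them. Small RNAs are short, so words of 21 bases show which reads could come from more than 1 gene. AT1G62590 shared 78.3% of its words with AT1G63330, and AT1G63330 shared 83.5% of its own with AT1G62590. Of the words of AT1G63330 only 3.62% occur once in the genome, against 11.8% in AT1G62590, 15.0% in AT1G62910, 29.4% in AT1G63400, 40.8% in AT1G62930, 51.6% in AT1G63130, 55.9% in AT1G63150, 57.0% in AT1G62670 and 67.1% in AT1G63080. In AT1G62860, 90.0% of words occur once, and 0 of 2569 are found in another member. How reads with several matches were counted is not given in the sources used here, so the values of the 9 coding members cannot be taken as independent of each other.

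**Figure D2:**
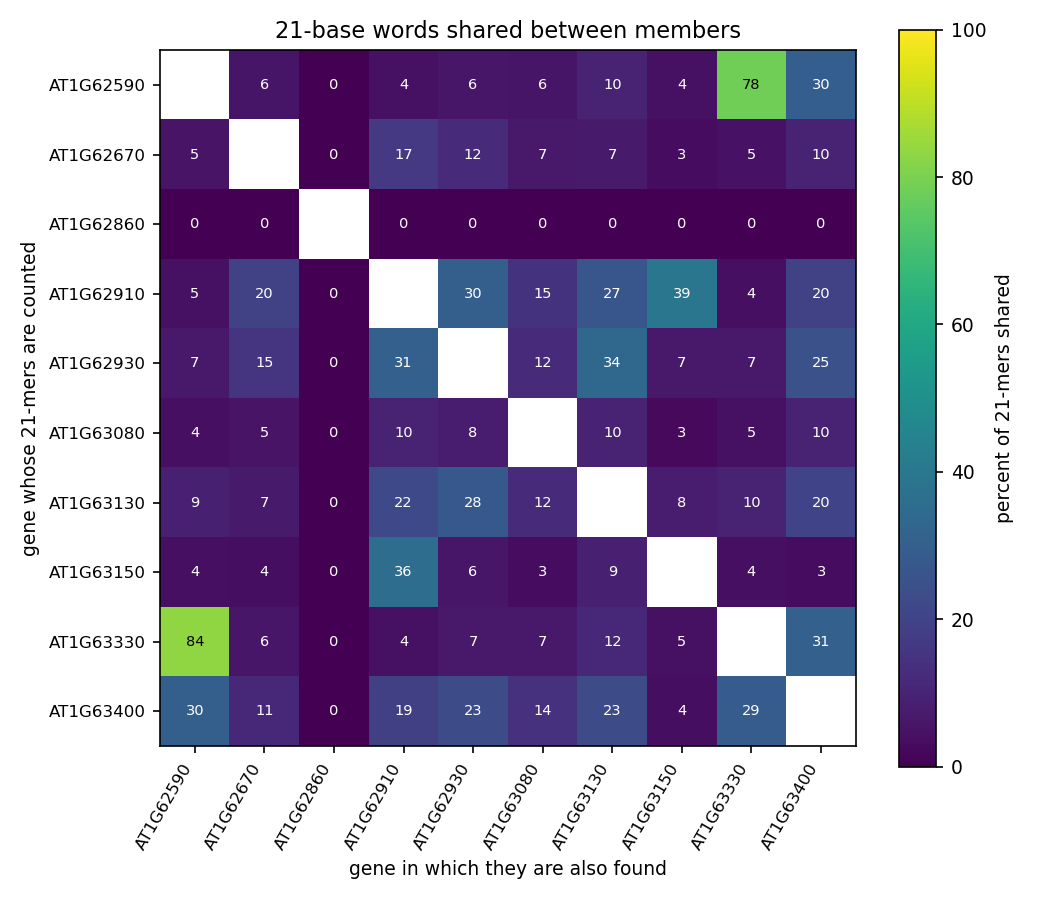
Percent of the 21-base words of 1 member (rows) that also occur in another member (columns), on the sense strand of the annotated genes; colour and number give the percent. AT1G62590 and AT1G63330 share 78.3% and 83.5% of their words, and the row and column of AT1G62860 are 0.

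Small RNA from coding members rose in all 4 lines named for ski2 mutations, in rrp4-2 and in both rrp4urt1dcl2 lines, and no member is listed as lower in any line. In total 52 member entries are listed over 8 lines and all 52 are above 0; a member counts as higher when its deposited adjusted p is under 0.05, and the table lists no entry above that. The sign ± marks a standard error (SE), worked out here from the deposited fold change and p-value. In each line some loci past the threshold are missing from the table, which lists from 50.9% to 82.8% of the ranks of p, so an absent member is not shown to be unchanged. Members were taken only from genes listed in some line, while most tested loci are listed in none. The shares of tested loci given below are thus not a like background for the members, and enrichment was not tested.

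In ski2-5, 9 of 10 members were higher, where 0.252% of the loci tested were listed as higher and 0.261% as lower. The rises in the authors' deposited table were near 2-fold. AT1G62590 rose by 1.04 ± 0.22, AT1G63330 by 1.02 ± 0.21 and AT1G62670 by 0.99 ± 0.21 on the log2 scale (SE, DESeq2 adjusted p = 0.00058, 0.00067 and 0.00064). These 3 members were the highest of the 9. AT1G63130 rose by 0.94, AT1G62930 by 0.91, AT1G63400 by 0.88, AT1G63080 by 0.87 and AT1G62910 by 0.85 in the authors' deposited table. AT1G63150 was lowest at 0.77 ± 0.18 (SE). The range over the 9 members, 0.77 to 1.04, spans little more than 1 SE of a single member. The median over members was 0.91, and that of all listed higher loci was 1.36.

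In ski2.2, which is named for a second ski2 allele, the listed members were AT1G62590, AT1G62670 and AT1G63330. The authors' deposited table gives rises of 0.76 ± 0.22, 0.72 ± 0.21 and 0.76 ± 0.21 on the log2 scale (SE, DESeq2 adjusted p = 0.036, 0.039 and 0.031). These 3 of 10 compare with 0.99% of tested loci listed as higher and 0.308% as lower. The same 3 genes were the highest in ski2-5. An unlisted coding member would have needed an absolute log2 fold change of 0.60 to 0.78 to pass in ski2.2. The differences ski2-5 minus ski2.2 were 0.28 ± 0.31 for AT1G62590, 0.27 ± 0.30 for AT1G62670 and 0.25 ± 0.30 for AT1G63330. None passed the two-sided z test (adjusted p = 0.982 for each, 0 of 3 at an unadjusted p under 0.05). Of the 84 loci listed in both lines 0% differed. Members not listed in ski2.2 could not enter this test, so it does not show that the 2 alleles act alike on the cluster. The interval for AT1G62590, -0.32 to 0.88, includes a difference as large as most of the fold change itself.

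In the lines with ski2, urt1 and dcl2 mutations, 9 of 10 members were higher in both, against 1.7% of tested loci in ski2urt1dcl2.107 and 0.861% in ski2urt1dcl2.123. The shares of tested loci listed as lower were 1.46% and 0.728%. For AT1G62590 the rise was 1.38 ± 0.24 (SE) in ski2urt1dcl2.107 and 1.27 ± 0.22 (SE) in ski2urt1dcl2.123, a 2.61-fold and a 2.41-fold level, in the authors' deposited table. AT1G62670 rose by 1.36 and 1.27 and AT1G63330 by 1.35 and 1.23 in the same order of lines. The other 6 members lay between 1.16 and 1.23 in ski2urt1dcl2.107 and between 1.02 and 1.12 in ski2urt1dcl2.123. So AT1G62590, AT1G62670 and AT1G63330 again had the highest values, and AT1G63150 the lowest. AT1G62590 and AT1G63330 are near copies, and the lines are read against the same Col-0 libraries. The repeated order is thus not independent, and it was not tested. Adjusted p ran from 4.4e-07 to 0.00026 in ski2urt1dcl2.107 and from 2.0e-07 to 0.00061 in ski2urt1dcl2.123 (the authors' DESeq2 values).

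Both lines had higher values than ski2-5 for all 9 members, by 0.30 to 0.39 in ski2urt1dcl2.107 and by 0.17 to 0.27 in ski2urt1dcl2.123, and none of these differences passed. For ski2urt1dcl2.107 minus ski2-5 the adjusted p of the z test was 0.581 or more (0 of 9 at an unadjusted p under 0.05), where 5.26% of 152 shared loci differed. For ski2urt1dcl2.123 minus ski2-5 it was 0.949 (again 0 of 9), where 6.72% of 134 shared loci differed. The SE of single differences was 0.25 to 0.35. Between ski2urt1dcl2.107 and ski2urt1dcl2.123 the members differed by 0.10 to 0.15 with an adjusted p of 0.993 (0 of 9 at an unadjusted p under 0.05), and 0.495% of 808 loci did. Both lines are named for dcl2 mutations and list the rise of the coding members.

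In rrp4-2, 3 members were listed as higher, where 3.45% of tested loci were, and 1.01% were lower. AT1G62930 rose by 0.67 ± 0.21, AT1G63080 by 0.65 ± 0.21 and AT1G62910 by 0.61 ± 0.20 in the authors' deposited table (SE, DESeq2 adjusted p = 0.025, 0.032 and 0.045). These are folds of 1.59, 1.57 and 1.52, and their ranks by p, from 2963 to 3618 where the last listed rank is 3740, place them among its weakest calls. The 3 members listed in ski2.2, AT1G62590, AT1G62670 and AT1G63330, are not among them. Their own limits in rrp4-2 were 0.64, 0.62 and 0.63, close to the values of the members that are listed. Whether ski2.2 and rrp4-2 differ in which members rise was not tested. An unlisted coding member would have needed 0.53 to 0.70 to pass in rrp4-2. Only the 3 listed members could enter the comparison with ski2-5. ski2-5 minus rrp4-2 gave 0.24 ± 0.28 for AT1G62910, 0.24 ± 0.29 for AT1G62930 and 0.22 ± 0.29 for AT1G63080 (z test, adjusted p = 0.694, 0.698 and 0.747; 0 of 3 at an unadjusted p under 0.05), where 23.4% of 128 shared loci differed.

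In rrp4urt1dcl2.B9, 9 of 10 members were higher, where 5.13% of tested loci were, and 1.21% were lower. Their values in the authors' deposited table were the most even among the lines that list 9 members, from 1.05 ± 0.18 (SE) for AT1G63150 to 1.15 ± 0.21 (SE) for AT1G63080. AT1G63400 stood at 1.15, AT1G62930 at 1.12, AT1G62590 at 1.11, AT1G63130 and AT1G62910 at 1.09, AT1G63330 just above them and AT1G62670 at 1.08. Adjusted p ran from 3.6e-07 to 4.3e-05 (DESeq2, the authors' values). The median of all listed higher loci in this line was 1.04, slightly below each of the 9 members.

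In rrp4urt1dcl2het, 9 of 10 members were higher, where 9.65% of tested loci were higher and 4.54% lower, and the members had their largest values here. AT1G62930 rose by 1.83 ± 0.21, a 3.56-fold level (95% interval 2.69 to 4.71), in the authors' deposited table (SE, DESeq2 adjusted p = 1.3e-16). AT1G63130 rose by 1.78, AT1G63400 by 1.74, AT1G63080 by 1.70 and AT1G62910 by 1.67 in the authors' deposited table. Below them stood AT1G62670 at 1.54, AT1G62590 at 1.51 and AT1G63330 at 1.47. AT1G63150 was lowest, at 1.18 ± 0.18 (SE), a 2.27-fold level. The 3 members with the highest values in the ski2 lines were thus in the lower part of the order here; the interaction of member and line was not tested.

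The rise in rrp4urt1dcl2het was larger than in rrp4-2 for each member listed in both. AT1G62930 was higher by 1.16 ± 0.29, AT1G62910 by 1.06 ± 0.28 and AT1G63080 by 1.05 ± 0.29 (SE; z test, adjusted p = 0.0021, 0.0053 and 0.0084), where 5.23% of 2331 shared loci differed. For rrp4urt1dcl2.B9 minus rrp4-2 the same genes gave 0.45 ± 0.29, 0.48 ± 0.28 and 0.50 ± 0.29, with 95% intervals that include 0 (adjusted p = 0.998, 0.998 and 0.973; 0 of 3 at an unadjusted p under 0.05), where 3.1% of 1837 loci differed. rrp4urt1dcl2het lay above rrp4urt1dcl2.B9 for all 9 members, by 0.13 for AT1G63150 to 0.71 for AT1G62930. None of these 9 passed (lowest adjusted p = 0.163 in the z test, 3 of 9 at an unadjusted p under 0.05), where 6.54% of 2966 loci differed; with a correlation of 0.5 between the lines 3 passed.

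Set against rrp4urt1dcl2.B9, ski2urt1dcl2.107 was higher by 0.05 to 0.28 for the 9 members and ski2urt1dcl2.123 differed by -0.10 to 0.19. None passed (lowest adjusted p of the z test = 0.685 and 0.783, 0 of 9 at an unadjusted p under 0.05 in each), although 20.4% of 559 and 21% of 429 shared loci differed. The 95% interval for AT1G62930 in ski2urt1dcl2.123 minus rrp4urt1dcl2.B9 ran from -0.59 to 0.55. Against rrp4urt1dcl2het, all 9 members were lower in both ski2urt1dcl2 lines. One of them passed, AT1G62930 in ski2urt1dcl2.123, at -0.73 ± 0.29 (SE; z test, adjusted p = 0.034), and 5 of 9 had an unadjusted p under 0.05 in that pair; with adjustment over all pairs together 0 passed. In ski2urt1dcl2.107 minus rrp4urt1dcl2het the lowest adjusted p was 0.131 (0 of 9 at an unadjusted p under 0.05). In these pairs 38.9% of 591 and 29.6% of 862 loci differed. Altogether 12 pairs of lines were compared, as if independent, although all fold changes are read against the same Col-0 libraries. A locus entered a pair only where both lines list it. The differences and the shares beside them are thus of selected loci and leave out unlisted members.

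**Figure D3:**
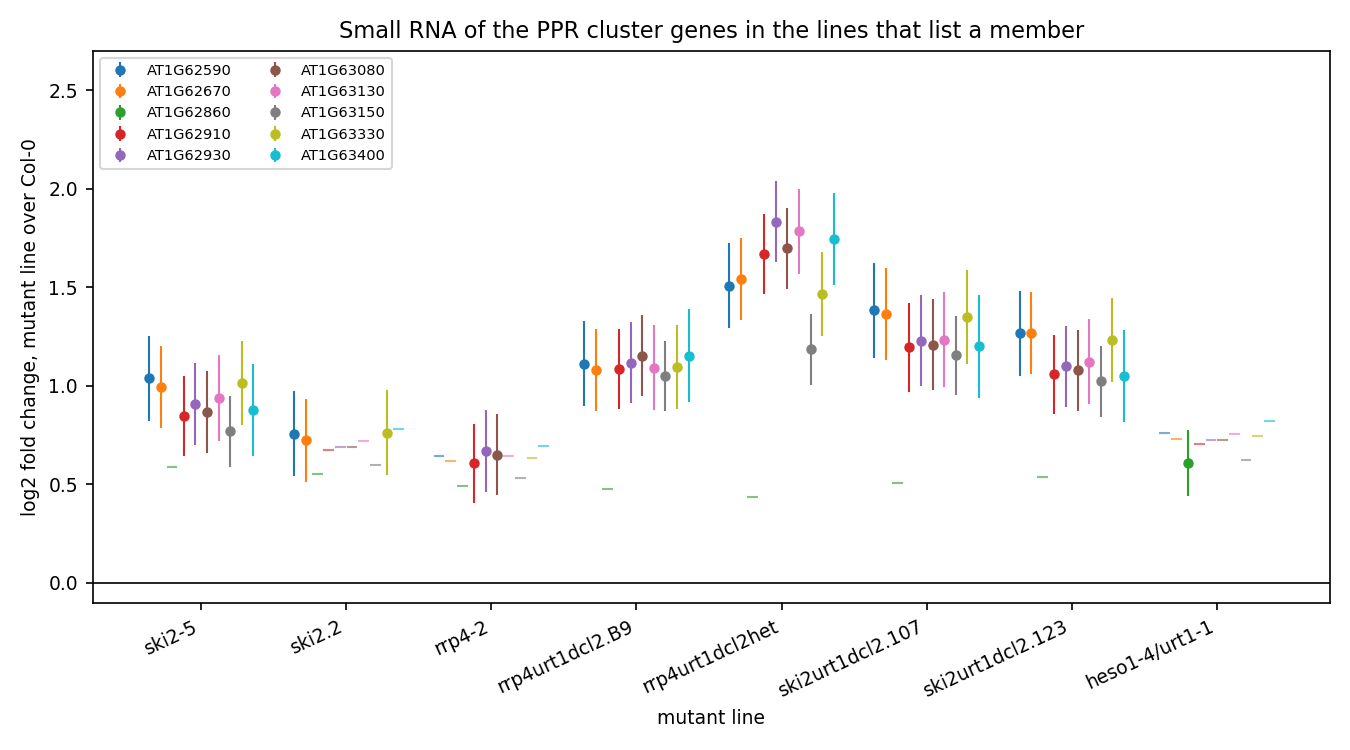
Log2 fold change of each member over Col-0 (y axis) in the 8 lines that list a member (x axis); points are the authors' deposited values, bars 1 SE recovered from the p-value, and short dashes the absolute log2 fold change an unlisted member would have needed. Coding members lie between 0.61 and 1.83, highest in rrp4urt1dcl2het, and AT1G62860 has a point only in heso1-4/urt1-1.

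**Figure D4:**
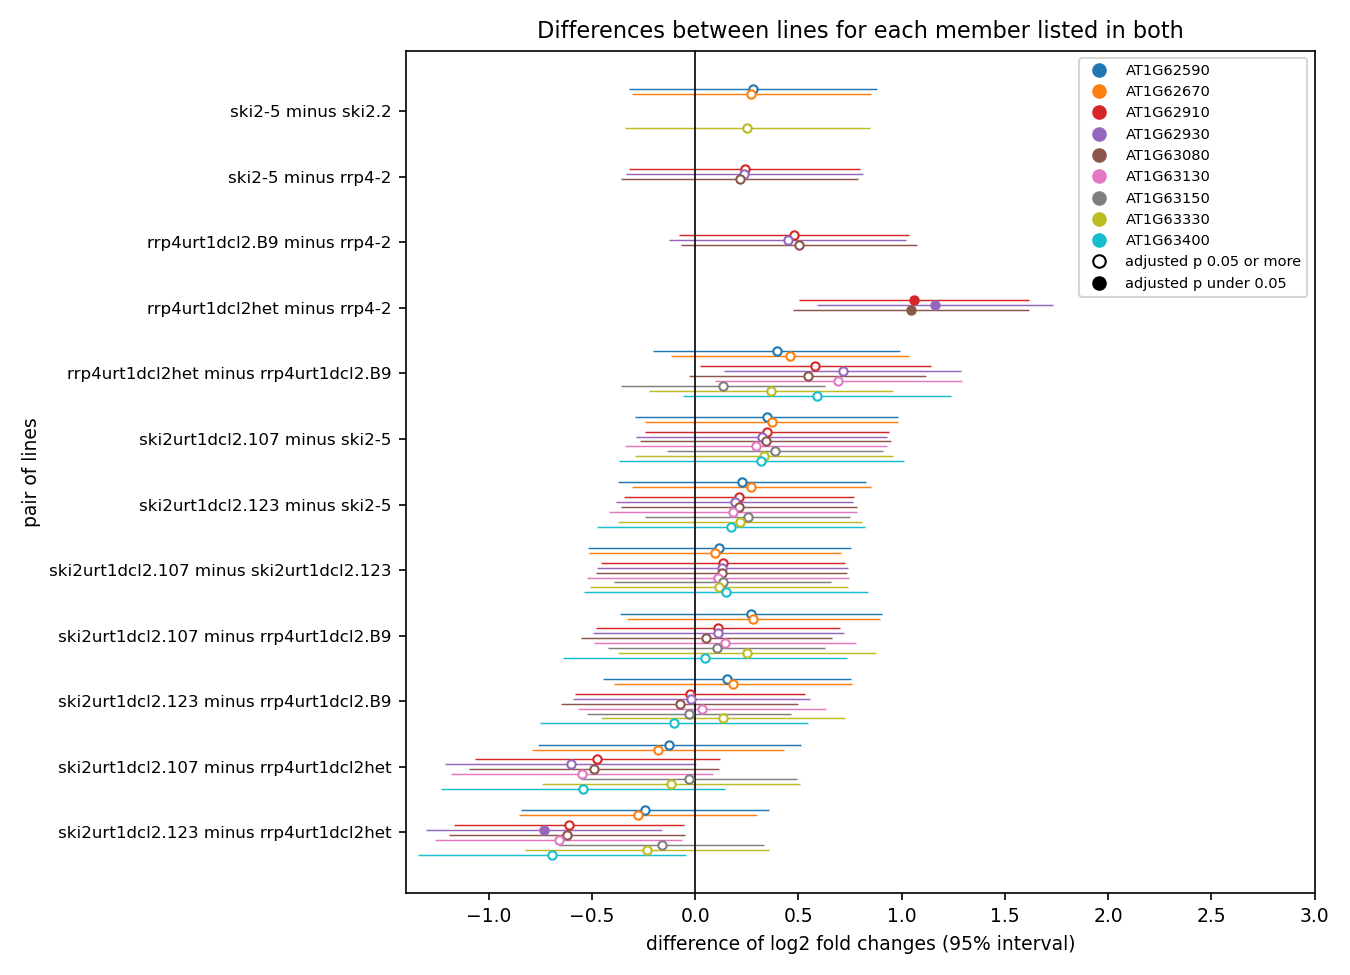
Difference of log2 fold changes (x axis, first line minus second) for each member listed in both lines of a pair (y axis, 12 pairs), with 95% intervals. Filled points, at an adjusted p under 0.05, are the 3 members of rrp4urt1dcl2het minus rrp4-2 and AT1G62930 of ski2urt1dcl2.123 minus rrp4urt1dcl2het.

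The pseudogene AT1G62860 was listed in none of the lines that list coding members, and in a line that lists none of them. In heso1-4/urt1-1 it rose by 0.61 ± 0.17, a 1.52-fold level (95% interval 1.22 to 1.91), in the authors' deposited table (SE, DESeq2 adjusted p = 0.029). That is 1 of 10 members, where 0.34% of tested loci were higher and 0.241% lower. As a member it had to be listed in at least 1 line, so this count is no evidence of an excess. In rrp4urt1dcl2het it would have needed 0.44 to pass and in ski2-5 0.59, both from the SE of its single entry. Its mean normalised count per kb was 448, next to 445 in AT1G62590. Whether its fold change differs between lines was not tested, since a single line lists it.

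No member was listed in rrp4-2/urt1-1/heso1-4, urt1-1, urt1.2, GKheso1 or heso1.3. In rrp4-2/urt1-1/heso1-4 the background is high, with 6.4% of tested loci higher and 5.08% lower, and a coding member would have needed 0.48 to 0.63 to pass. The values of rrp4urt1dcl2.B9, 1.05 to 1.15, lie above these limits; the table lists 78.0% of the ranks in rrp4-2/urt1-1/heso1-4, and the difference between the lines was not tested. In the other lines the limits for coding members were higher: 0.64 to 0.83 in urt1-1, 0.66 to 0.86 in urt1.2 and in GKheso1, and 0.67 to 0.88 in heso1.3. In heso1-4/urt1-1 they were 0.63 to 0.82. The share of tested loci listed as higher was 0.32% in urt1-1, 0.148% in urt1.2, 0.125% in GKheso1 and 0.082% in heso1.3, and as lower 0.111%, 0.102%, 0.155% and 0.0935% in the same order of lines.

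Of 19 other Rf-like PPR genes, 9 are listed in some line and 10 in none. In ski2-5 5 of the 19 rose, in ski2urt1dcl2.107 and ski2urt1dcl2.123 7 each, in rrp4urt1dcl2.B9 8, in rrp4urt1dcl2het 6 and in rrp4-2 1, and 0 fell in these lines. In ski2.2, which lists 3 members, 0 of the 19 are listed. In GKheso1 2 fell, and 1 rose in heso1-4/urt1-1, as 1 did in rrp4-2/urt1-1/heso1-4. AT1G62914 and AT1G63070, which lie within the cluster, had values close to those of the members: 1.75 and 1.54 in rrp4urt1dcl2het and 0.90 and 0.94 in ski2-5, in the authors' deposited table. They share 52.1% and 55.8% of their 21-base words with the members. AT1G63320, a short PPR gene of the cluster, had log2 fold changes of 1.97 ± 0.23 (SE) in rrp4urt1dcl2het, 1.11 in rrp4urt1dcl2.B9, 1.07 in ski2urt1dcl2.107, 0.82 in ski2urt1dcl2.123, 0.75 in rrp4-2 and -0.91 in GKheso1, per the authors' deposited table. AT1G12300 and AT1G12620, outside the cluster, had larger values in ski2urt1dcl2.107 (1.77 and 1.76) than in rrp4urt1dcl2het (0.59 and 0.69), per the authors' deposited table; these differences were not tested. They also rose in ski2urt1dcl2.123, in ski2-5 (0.96 and 0.95) and in rrp4urt1dcl2.B9 (0.95 and 1.04), per the authors' deposited table. AT1G12775 rose by 1.29 in ski2urt1dcl2.107, 1.02 in ski2urt1dcl2.123, 0.76 in ski2-5 and 0.57 in rrp4urt1dcl2.B9 and fell by 0.69 in GKheso1, in the authors' deposited table. AT5G16640 rose by 1.64 in ski2urt1dcl2.107, 1.26 in ski2urt1dcl2.123 and 1.00 in rrp4urt1dcl2.B9, and AT1G62680 by 0.76 in rrp4urt1dcl2het, as the authors' deposited table gives them. AT1G64100 stood apart from the coding members, at 2.497 ± 0.36 (SE) in heso1-4/urt1-1, 1.88 in rrp4-2/urt1-1/heso1-4 and 1.21 in rrp4urt1dcl2.B9 in the authors' deposited table. It shares 0.48% of its words (19 of 3959) with the members, all of them with AT1G62860, the member that heso1-4/urt1-1 lists. AT1G63230 shares more of its words with AT1G62860, 6.14%, and is listed in no line. Whether shared words bear on these values was not tested.

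Loci that give the triggers were listed as lower or not at all. Of 7 trigger loci, MIR161, TAS1A, TAS1C and TAS2 are listed in no line. TAS1B, a source of trans-acting siRNAs that target PPR genes, had -0.53 ± 0.16 (SE) in rrp4urt1dcl2het, -0.55 in rrp4-2, -0.79 in heso1-4/urt1-1, -0.82 in GKheso1 and -0.90 in rrp4-2/urt1-1/heso1-4 as log2 fold changes, per the authors' deposited table. MIR173, whose product starts TAS1 and TAS2 siRNAs, fell by 0.51 ± 0.16 (SE) on the log2 scale in rrp4urt1dcl2het, and MIR400 by 0.92 ± 0.26 there and by 0.95 in rrp4-2/urt1-1/heso1-4, per the authors' deposited table. In ski2-5, ski2.2, rrp4urt1dcl2.B9 and both ski2urt1dcl2 lines 0 of the 7 were listed.

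Among 11 genes of the secondary siRNA machinery, AGO1 gave more small RNA in the lines named for ski2 mutations. AGO1, the main microRNA slicer and itself a microRNA target, rose by 2.00 ± 0.21 (SE) in ski2urt1dcl2.107, 1.85 in ski2urt1dcl2.123, 1.50 in ski2-5, 1.13 in ski2.2 and 0.62 in rrp4urt1dcl2.B9, in the authors' deposited table. AGO7, an argonaute that acts at a TAS locus, rose by 1.06 in ski2urt1dcl2.107, and DCL2 fell by 0.77 ± 0.22 (SE) in rrp4urt1dcl2het, per the authors' deposited table. DRB4, a partner of DCL4, rose by 1.24 in rrp4-2/urt1-1/heso1-4 and is in no line that lists 9 members, per the authors' deposited table. RDR6, SGS3, SDE5, DCL4, DCL1, AGO2 and HEN1 are listed in no line. These are levels of small RNA from the genes, not of their mRNA. Their part in the values of the PPR members was not tested.

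The interval holds 98 further genes that are neither Rf-like PPR genes of the lists nor overlap a member, and 17 of them are listed in at least 1 line. How many of the 98 were tested is not known, so their shares and those of all tested loci have unlike bases. The listed ones had mean normalised counts of 20.9 to 499, against 906 to 2808 in the members. Of the 98, 8.16% (8 genes) were higher in rrp4urt1dcl2het, where 9.65% of all tested loci were, and 3 were lower. In rrp4-2 3.06% (3 genes) were higher, against 3.45% of all tested loci. In rrp4urt1dcl2.B9 and in ski2urt1dcl2.107 2.04% (2 genes) were higher, against 5.13% and 1.7% of all tested loci. In rrp4-2/urt1-1/heso1-4 4.08% (4 genes) were higher, against 6.4%, and 1 was lower. In GKheso1 1 was lower. In each of the remaining lines, ski2-5 and ski2urt1dcl2.123 among them, 0 of the 98 were listed. Annotated loci that overlap members by more than 100 bases did rise: the antisense locus AT1G08537, whose 327 bases lie within AT1G62590, by 1.98 ± 0.33 (SE) in rrp4urt1dcl2het, 1.27 in ski2urt1dcl2.107 and 1.21 in rrp4urt1dcl2.B9, and MIR5652, which overlaps AT1G63130 by 448 bases, by 1.46, 1.18 and 0.87 in the same order of lines, in the authors' deposited table. MIR5652 also rose by 1.12 in ski2urt1dcl2.123 in the authors' deposited table. Whether reads were counted by strand is not given in the sources used here, so reads of these loci and of the members cannot be told apart.

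Over the 5 lines that list 9 members, 65 loci are listed in all, and 56 of them are not members. Of these 56, 46 rose in all 5 lines, so a rise in all 5 is not particular to the members. By the root mean square difference from the median log2 fold change of the members over these 5 lines, AT1G62914 (0.063) and AT1G63070 (0.094) were nearest. They were followed by AT1G52840, typed by the table as a transposable element gene (0.11), the copper microRNA gene MIR398a (0.23) and AT1G50220 (0.24). The members themselves, which set this median, lay between 0.037 for AT1G63080 and 0.23 for AT1G63150. AT1G52840, MIR398a and AT1G50220 share 0 words of 21 bases with the members. Among listed non-member loci typed as microRNA targets, 20 were higher and 0 lower in ski2-5 (median 1.26), and 40 were higher and 14 lower in rrp4urt1dcl2het (median 0.90), next to member medians of 0.91 and 1.67. In rrp4-2/urt1-1/heso1-4, which lists no member, 52 were higher and 9 lower (median 1.01). In rrp4urt1dcl2.B9 43 were higher and 4 lower, and in rrp4-2 30 were higher and 7 lower. In heso1-4/urt1-1 8 were higher and 5 lower, and in GKheso1 1 was higher and 7 lower (median -1.33). How many such loci were tested is not known from the table, so no share is given.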

How the data were processed

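The members and gene lists were chosen with earlier results of these data known. Per the submitters' processing notes, the tools were DESeq2, STAR 2.6.0a, Subread 1.6.3 with its featureCounts, and cutadapt 2.4, on TAIR10, with no order or parameters given. Each locus has 1 signal, a mean of normalised counts that the authors deposited. The log2 fold changes, unadjusted p-values and adjusted p-values were deposited by the authors, from DESeq2 per the file headers; the largest adjusted p is 0.05. No library's own values were used here; depth and replicate spread are unknown.

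The number of loci tested per line (32432 to 78096) was recovered as the smallest number for which adjusted over unadjusted p gives whole ranks in 90% or more of the top 150 entries. Standard errors are the size of a fold change on the log2 scale divided by the two-sided normal quantile of its p; 4 entries with p of 0, none of them a member's, took a locus's median error instead. An unlisted member's limit is its median error times the normal quantile of the largest p listed in that line. Pairs of lines were compared by a two-sided z test over all loci listed in both, with Benjamini-Hochberg adjustment within the pair. The recovery of the number tested and the z test were run on simulated data. For the z test these had independent errors of the size the test assumes. They therefore do not cover the shared Col-0 libraries or the selection of listed loci. Genes named are all members, every listed gene of the lists in lines that list 5 or more members (with their other entries for PPR genes), and the 5 loci nearest in pattern. Alternatives were an adjusted p of 0.01, an absolute log2 fold change of at least 1, leaving out AT1G62860 or, chosen after seeing the data, AT1G63330, unlisted members at 0, a correlation of 0.5 between lines, the median error of the locus, and adjustment over all pairs. Sequences and coordinates are from RefSeq's TAIR10.1, for which all 10 members matched; the deposited table holds no coordinates. Analyses used Python 3.11.15, pandas 2.3.3, SciPy 1.17.1 and Biopython 1.88.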

Additional observations from a re-analysis of the deposited data

How the results depend on the processing

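At an adjusted p under 0.01, 9 members stayed higher in both ski2urt1dcl2 lines and both rrp4urt1dcl2 lines. In ski2-5 8 of its 9 did, AT1G63400 being lost (DESeq2 adjusted p = 0.026). The counts in ski2.2, rrp4-2 and heso1-4/urt1-1 went to 0. With an absolute log2 fold change of at least 1, 2 members passed in ski2-5 and 0 in ski2.2, rrp4-2 and heso1-4/urt1-1; their values are below that size. Without AT1G62860 the count in heso1-4/urt1-1 was 0, since it is the member listed. With unlisted members set to 0 the median log2 fold change was 0 in ski2.2, rrp4-2 and heso1-4/urt1-1. Leaving out AT1G63330, a near copy of AT1G62590, gave 8 members in the 5 lines that list 9 and 2 in ski2.2, all within 1.5 times the counts with it, and shifted the median in ski2-5 to 0.89. The median error of the locus moved none of 12 counts between lines by over 1.5 times. With a correlation of 0.5 between lines, 3 members differed in rrp4urt1dcl2het minus rrp4urt1dcl2.B9, 2 in ski2urt1dcl2.107 minus rrp4urt1dcl2het and 5 in ski2urt1dcl2.123 minus rrp4urt1dcl2het; this follows from the smaller error. With adjustment over all pairs together, 0 differed in the last of these. Leaving out a replicate was not run. No paired analysis was possible because the table holds no values per library. Depth limits are unknown, and a fold below the stated limits could not be seen.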
